A study of Mus musculus with 6 samples.

Results

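The nuclear genes of the mitochondrial respiratory chain were followed through 6 RNA-seq libraries of CD4 T cells sorted from mouse spleen. Members were taken by name: every protein-coding gene of the count table whose symbol begins with Nduf, Uqcr, Atp5, Sdha, Sdhb, Sdhc, Sdhd, Cox4i, Cox5, Cox6, Cox7 or Cox8 in the GRCm38 annotation. The rule found 97 of 47729 genes, of which 44 belong to complex I, 8 to complex II, 8 to complex III, 20 to complex IV and 17 to complex V. It takes in 12 assembly factors beside the subunits, and it used no expression value. A filter on low counts left 90 members to test, and the 7 others are isoforms of complex IV with at most 20 counts over the 6 libraries.

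The libraries form 3 groups of 2. WT libraries came from mature naive cells of wild type mice, gated on CD3+CD4+CD25-CD45RBhi. ON and OFF libraries came from immature naive cells of RBPJind mice, gated on CD3+CD4+CD25-CD45RBint. Notch receptors need RBPJ, which binds DNA, to switch on their target genes, and in these mice doxycycline (Dox) induces it. The ON mice drank Dox for 4 weeks and their cells stayed Notch responsive, whereas the OFF mice drank it for 3 weeks and then went 1 week without it. Every sample carries the label Dox, the WT samples without a duration, and the promoter or cell type that drives the induction is not given in the sources used here. OFF against ON therefore sets the last week with and without Dox side by side at 1 genotype and gate. ON against WT and OFF against WT also differ in genotype, maturity and gate, which cannot be told apart. Nothing in the labels says that paired libraries of 1 group are different mice, and each p-value thus reflects the spread of these samples alone, which may be technical.

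The respiratory chain passes electrons from NADH (complex I) and succinate (complex II) through complex III and cytochrome c to oxygen at complex IV, and complexes I, III and IV pump protons across the inner mitochondrial membrane. Complex V, the ATP synthase, lets the protons flow back and makes ATP. The mitochondrial genome encodes some core subunits of complexes I, III, IV and V, and the nucleus encodes all the rest, among them the accessory subunits that surround the cores. Resting naive T cells draw much of their ATP from this chain, and activated T cells expand it.

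Counts assigned to genes ranged from 17025551 to 19319183 per library. Reads without an alignment made up 21.8% and 18.8% of the WT libraries, 14.8% and 9.34% of ON and 22.1% and 24.3% of OFF. Protein-coding genes took 65.3% and 68.3% of gene counts in WT, 71.7% and 76.2% in ON, with 67.2% and 66.8% in OFF. Rbpj itself stood at 36.1 and 35.3 CPM (counts scaled to a common library size with TMM factors) in WT, at 98.2 and 79.6 in ON and at 29.8 and 31.7 in OFF, highest in ON as the labels have it. The 7 T cell markers summed to between 2329 and 3269 CPM in every library. The 7 B cell markers summed to 7.54 and 8.26 CPM in WT, 32.9 and 25.4 in ON, with 29.4 and 43.9 in OFF, and the 7 myeloid markers to 15.6 and 16.05, 32.9 and 30.97, and 29.5 and 44.95. None of these 14 B cell and myeloid markers was at 0 in all libraries. Of the B cell markers, 4 of 7 were called higher in ON than in WT and 7 of 7 in OFF than in WT. Of 5 tested myeloid markers 3 and 1 were, where 9.68% and 4.7% of all genes were. Of the 7 T cell markers only Cd28 was called, lower in ON than in WT. The 5 markers of CD8 T and NK cells summed to between 14.9 and 26.1 CPM, and Cd8a among them was called higher in ON and in OFF than in WT. The 4 red cell markers summed to between 0.116 and 1.92 CPM, with Hbb-bs and Hba-a1 below 1 CPM in each library. The 3 platelet markers summed to between 2.28 and 4.33 CPM, nearly all of it Itga2b, with Pf4 and Ppbp below 1 CPM in each library.

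Respiratory chain transcripts made up a larger share of the counts in ON than in WT. In ON against WT, 20 of 90 members (22.2%) were called higher (adjusted p under 0.05 over all 15780 genes tested) and none was called lower, where 9.68% of all genes were called higher and 5.16% lower. At an unadjusted p under 0.05 the members numbered 38 higher and 1 lower. Of all 15780 genes 2692 were higher and 2120 lower at that p. The median log2 fold change of the members was 0.34 (quartiles 0.12 and 0.51), a 1.26-fold difference, and 78 of 90 were above 0. The median of all genes was -0.02, and that of the 12667 protein-coding genes, of which 11.5% were called higher, was 0.03. Both ON libraries lay above both WT libraries in 58 members, and both lay below in 4. Over all genes these shares were 29.8% and 30%. Called differences ran from 1.36-fold in Ndufs4 to 1.94-fold in Cox5b. In a bulk sample, fewer cells of a type and less RNA per cell cannot be told apart.

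**Figure D1:**
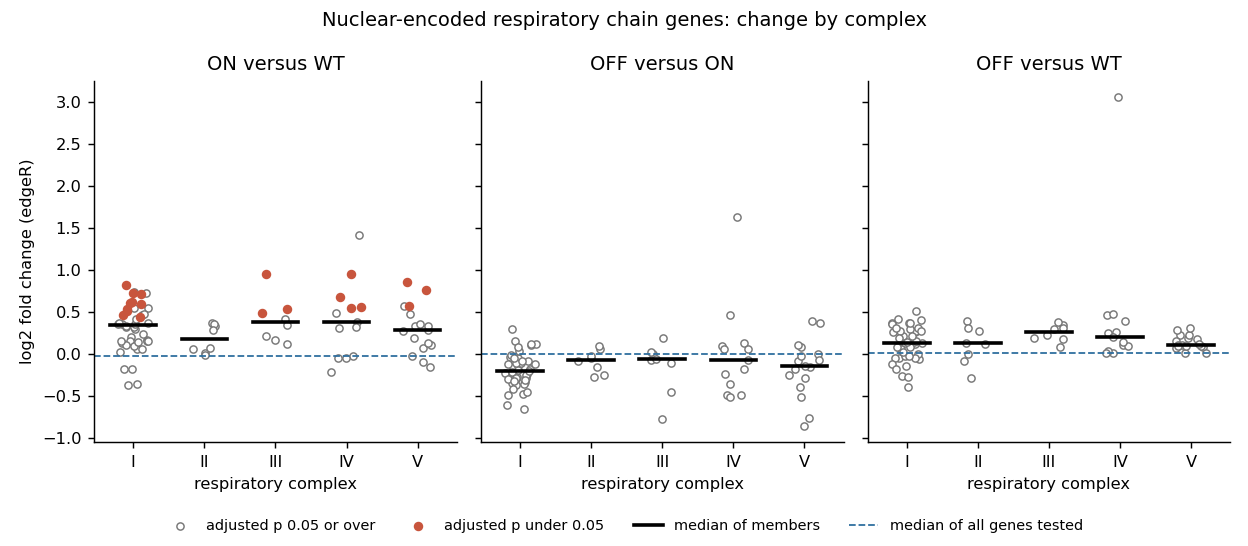
Log2 fold change of each tested member by respiratory complex in the 3 comparisons, with each point a gene, filled where edgeR's adjusted p was under 0.05; black bars are medians of the members and the dashed line is the median of all 15780 genes. In ON versus WT the 20 filled points all lie above 0 and none belongs to complex II, and no point is filled in the other panels.

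The calls of ON against WT rested on the WT libraries. Without WT replicate 1 only 2 members were called and without WT replicate 2 none, while the calls over all genes fell to 2.17% and 1.56%. The median of the members moved little, between 0.29 and 0.37, whichever library was left out. Most members are short: of the protein-coding genes with transcripts of up to 1000 bases, the range that holds 50 of the 90 members, 19.4% were called higher.

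Complex IV, cytochrome c oxidase, reduces oxygen to water. Its catalytic subunits are mitochondrially encoded, and its nuclear subunits surround and regulate them. Of 13 tested members 4 (30.8%) were called higher in ON than in WT, where 9.68% of all genes were. The median log2 fold change was 0.39. Cox5b, a matrix-side subunit (ENSMUSG00000061518; GRCm38 chromosome 1, 36691449 to 36693681), had the smallest p of all members. It was counted at 42.5 and 39.7 CPM in WT, 85.7 and 73.6 in ON, with 51.2 and 62.6 in OFF. Both ON libraries lay above the 4 others, and the OFF libraries lay above WT. The log2 fold change of ON against WT was 0.95 ± 0.14 (SE; adjusted p = 0.00328, and 0.0603 at most over 15 alternatives). Cox6c, a small membrane subunit (chromosome 15, 35925886 to 35938246), was counted at 95.9 and 96.9 CPM in WT, 136 and 174 in ON, against 109 and 113 in OFF. It rose by 0.68 ± 0.14 in log2 (adjusted p = 0.0112). The membrane subunits Cox7b (0.55 ± 0.12; adjusted p = 0.0163) and Cox8a (0.57 ± 0.13; 0.0187) also rose. Cox7b ran at 41.7 and 42.3 CPM in WT, 60.7 and 62.7 in ON, with 41.0 and 45.6 in OFF. In Cox8a the OFF libraries, 38.0 and 43.0 CPM, lay between WT (30.5 and 31.0) and ON (44.6 and 46.6).

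Other subunits of the same enzyme were not called. Cox5a, which sits beside Cox5b in the complex, was at 17.1 and 16.3 CPM in WT but at 19.4 and 9.56 in ON and 14.7 and 25.4 in OFF. Its ON and OFF replicates differed more than its groups, and its log2 fold change, the lowest of the complex, was -0.21 ± 0.36. Cox6a1 and Cox7a2 had log2 fold changes of -0.02 and -0.04. Cox7a2l, which joins complexes III and IV into supercomplexes, was at 134 and 125 CPM in WT and at 127 and 124 in ON. Cox4i1, the regulatory subunit that binds ATP, was at 86.9 and 93.1 CPM in WT and 119 and 105 in ON, groups that did not overlap, but its adjusted p was 0.121.

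Isoforms restricted to other tissues were near 0. Beside Cox4i1, Cox6b1 and Cox8a stood Cox4i2 with 15 counts over the 6 libraries, Cox6b2 with 20, Cox8b with 4 and Cox8c with 4. Cox7a1, Cox7b2 and Ndufa4l2 had 6, 12 and 9 counts. Cox6a2, the isoform of Cox6a1 known from heart and skeletal muscle, was the only one of the 8 to be tested. It was at 0.0598 and 0.174 CPM in WT, 0.102 and 0.545 in ON, against 1.21 and 0.841 in OFF. Its log2 fold change of ON against WT, 1.42 ± 1.06, was the highest of the complex and was not called. Cox6a2 had 21 and 14 counts in OFF and 1 to 11 in each other library. It thus passed the filter on low counts only with its OFF libraries, the group where it was high. Both OFF libraries lay above the 4 others, a separation that is only described here. On these few counts the log2 fold change of OFF against WT was 3.05 ± 0.84. Because the filter was passed through the group where the gene was high, no p-value is given for it.

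**Figure D2:**
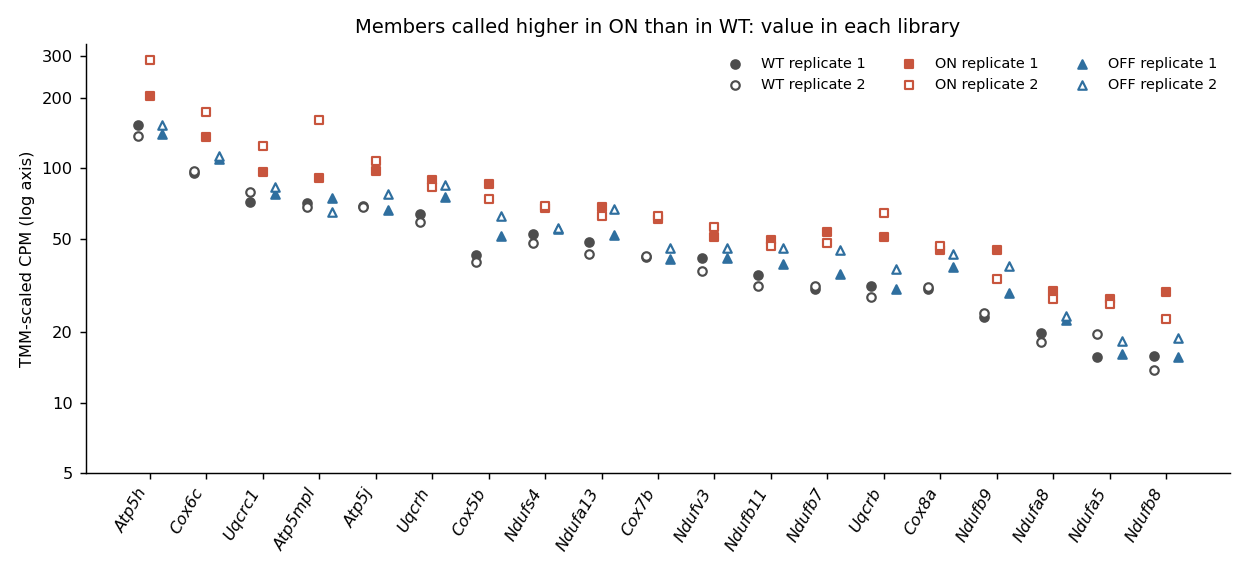
TMM-scaled CPM (log axis) of 19 of the 20 members called higher in ON than in WT, 1 marker per library, ordered by mean level. Filled markers are replicate 1 and open markers replicate 2; the ON libraries lie above the WT libraries in every gene shown, and they lie furthest apart in Atp5mpl (90.7 and 161 CPM).

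Complex III, the cytochrome bc1 complex, moves electrons from ubiquinol to cytochrome c. Of 8 members 3 (37.5%) were called higher in ON than in WT, where 9.68% of all genes were, and the median was 0.39. Uqcrb, the subunit next to the ubiquinone site (ENSMUSG00000021520; chromosome 13, 66900617 to 66905378), was counted at 31.4 and 28.1 CPM in WT, 50.9 and 64.3 in ON, with 30.6 and 37.2 in OFF. The ON libraries stood apart from the 4 others, and OFF overlapped WT. Uqcrb rose by 0.95 ± 0.16 in log2 from WT to ON (adjusted p = 0.0054, and 0.0862 at most over the alternatives). Uqcrh, the hinge subunit at the cytochrome c1 contact, was at 63.9 and 59.0 CPM in WT, 89.0 and 83.2 in ON, against 75.6 and 84.6 in OFF (0.49 ± 0.12; adjusted p = 0.0271). Of the core proteins, Uqcrc1 was at 72.0 and 79.5 CPM in WT and 96.5 and 124 in ON, and it rose by 0.54 ± 0.14 (adjusted p = 0.0329). Its partner Uqcrc2 (0.12 ± 0.12) and the Rieske iron-sulphur protein Uqcrfs1 (0.17 ± 0.15), which carries out the electron transfer, were not called. Cyc1, the cytochrome c1 subunit that the naming rule leaves out, was at 24.6 and 23.1 CPM in WT and 25.6 and 26.6 in ON (0.13 ± 0.13; adjusted p = 0.561).

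Complex V consists of the catalytic F1 head, a ring of c subunits that turns as protons pass, and a stalk with membrane subunits that hold the head in place. In ON against WT 3 of 17 members (17.6%) were called, all 3 in the stalk and membrane part. Of all genes 9.68% were called higher, and of protein-coding genes of up to 1000 bases 19.4%. Atp5h, the stalk subunit d (ENSMUSG00000034566; chromosome 11, 115415689 to 115419962), was at 153 and 137 CPM in WT, 203 and 291 in ON, with 140 and 153 in OFF. It rose by 0.77 ± 0.17 (adjusted p = 0.0166), although the ON libraries were far apart. Atp5j, the coupling factor F6 of the stalk, was at 69.1 and 68.0 CPM in WT, 97.6 and 107 in ON, against 66.5 and 77.9 in OFF (0.58 ± 0.13; adjusted p = 0.0158). Atp5mpl, a small protein attached to the enzyme, had the largest log2 fold change of the complex, 0.86 ± 0.23, with 70.8 and 68.0 CPM in WT against 90.7 and 161 in ON. Its adjusted p of 0.0403 was lost under 10 of 15 alternatives. The 5 genes of the F1 head had log2 fold changes of 0.07 to 0.36 and none was called. Among them the catalytic subunit Atp5b was at 227 and 216 CPM in WT, 291 and 279 in ON, with 240 and 279 in OFF (0.36 ± 0.12; adjusted p = 0.0756), and Atp5a1 was at 336 and 321, 400 and 431, and 351 and 396 (0.34 ± 0.12; 0.0871).

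No gene of the c ring was called in any comparison. Atp5g1, Atp5g2 and Atp5g3 encode the same mature protein with different import signals. Atp5g3 was at 34.4 and 33.02 CPM in WT, 34.96 and 28.5 in ON, against 38.5 and 45.0 in OFF. Atp5g2 was at 24.6 and 18.3, 20.1 and 18.6, and 24.0 and 26.3. In these 2 genes the log2 fold changes of ON against WT were -0.09 ± 0.15 and -0.15 ± 0.17, and those of OFF against ON were 0.40 ± 0.15 and 0.38 ± 0.17 (adjusted p = 0.191 and 0.272). Atp5g1, at 12.1 to 17.3 CPM, had values of 0.29 ± 0.20 and -0.17 ± 0.19. Of the Atp5g2 transcript 88.2% lies in stretches of at least 50 bases that are identical in transcripts of other genes, so its count is uncertain. Among the called members such stretches covered at most 33.4% of the transcript, in Atp5j. In uncalled members they covered 72.1% of Atp5l, 69.6% of Sdhaf1, 48.8% of Atp5o, 42.0% of Cox5a, 40.2% of Ndufb4 and 39.0% of Ndufb6. The counts of these genes are uncertain too.

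Complex I, which oxidises NADH, has nuclear core subunits that carry its flavin and iron-sulphur clusters, and many accessory subunits. In ON against WT 10 of 44 members (22.7%) were called higher, where 9.68% of all genes were. None of the 8 assembly factors was among the called members. The median log2 fold change was 0.36 in the accessory subunits, 0.34 in the core and 0.15 in the assembly factors. Ndufb8 had the largest log2 fold change, 0.82 ± 0.18 (adjusted p = 0.0177), with 15.9 and 13.8 CPM in WT, 29.5 and 22.8 in ON, against 15.7 and 18.8 in OFF. Ndufb7 was at 30.5 and 31.3 CPM in WT, 53.7 and 47.9 in ON, with 35.3 and 44.6 in OFF (0.72 ± 0.15; adjusted p = 0.0129). Both are subunits of the membrane arm, as are Ndufb9 (0.72 ± 0.18; adjusted p = 0.027), Ndufb11 (0.53 ± 0.14; 0.0285) and Ndufa8 (0.60 ± 0.14; 0.0212). Ndufs4, Ndufa5, Ndufv3 and Ndufa13 were called with log2 fold changes of 0.44 to 0.61, and Ndufa13 lost its call under 10 of 15 alternatives. The opposite end was held by Ndufab1, the acyl carrier protein that also serves mitochondrial fatty acid synthesis, at 32.5 and 34.2 CPM in WT, 24.4 and 27.3 in ON and 27.8 in both OFF libraries (-0.37 ± 0.13; adjusted p = 0.0925).

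In the core of complex I, Ndufv1, which binds NADH and the flavin, had 0.43 ± 0.13 (adjusted p = 0.0517), at 32.8 and 33.6 CPM in WT and 47.1 and 42.1 in ON. Ndufs8 and Ndufv2 had 0.48 ± 0.19 and 0.34 ± 0.22. Ndufs1, Ndufs3 and Ndufs7 had 0.09 ± 0.12, 0.03 ± 0.15 and 0.15 ± 0.13. None of the 12 assembly factors among the members was called. The highest of them, Ndufaf2 and Ndufaf7, had 0.74 ± 0.25 and 0.73 ± 0.22 (adjusted p = 0.0768 and 0.0556).

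Complex II, succinate dehydrogenase, is also an enzyme of the tricarboxylic acid cycle and has no mitochondrially encoded subunit. None of its 8 members was called in any comparison, and the median in ON against WT was 0.19. Sdha, the flavoprotein, was at 186 and 171 CPM in WT, 179 and 195 in ON, with 166 and 172 in OFF, with overlapping ranges (0.07 ± 0.11). The iron-sulphur subunit Sdhb was at 40.7 and 41.5, 54.3 and 51.2, and 46.04 and 56.2 (0.36 ± 0.13; adjusted p = 0.104). The membrane anchors Sdhc and Sdhd had 0.08 ± 0.14 and 0.29 ± 0.19. The assembly factors Sdhaf4 and Sdhaf3 held the extremes, 0.38 ± 0.33 and -0.01 ± 0.30, at 5.2 CPM or less.

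Between OFF and ON no member was called by edgeR. At an unadjusted p under 0.05, 2 members were higher and 20 were lower in OFF. Of all 15780 genes 1437 were higher and 1571 lower at that p. Over all genes edgeR called 0.602% higher and 0.425% lower at an adjusted p under 0.05. DESeq2 called 5 members lower and none higher, and its share over all genes is not given here. The median of the members was -0.14 (quartiles -0.30 and 0.00) against 0.00 for all genes, and 67 of 90 were below 0. Both OFF libraries lay below both ON libraries in 35 members and above in 6. Over all genes the shares of such separate groups were 23.3% lower and 23.4% higher. By complex the medians were -0.20 in I, -0.06 in II, -0.06 in III, -0.07 in IV and -0.13 in V.

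The smallest unadjusted p-values of this comparison belonged to 5 genes. Their log2 fold changes were -0.77 ± 0.16 in Uqcrb (adjusted p = 0.058), -0.75 ± 0.17 in Atp5h (0.0698), -0.51 ± 0.12 in Cox7b (0.0757), -0.51 ± 0.12 in Atp5j (0.0834) and -0.65 ± 0.16 in Ndufa5 (0.0846). In each of them both OFF libraries lay below both ON libraries, as the library values above show, and Ndufa5 was at 27.8 and 26.3 CPM in ON and 16.1 and 18.3 in OFF. Each passed the threshold with the crossed replicate block, an alternative chosen after seeing the data, and Ndufa5 passed with no other. Uqcrb, Atp5h, Cox7b and Atp5j also passed with DESeq2. The lowest log2 fold change was that of Atp5mpl, -0.85 ± 0.23 (adjusted p = 0.116), with its ON libraries far apart. The highest in complex III was Uqcrc2, with 0.20 ± 0.12, in complex I Ndufb6 with 0.30 ± 0.30 and in complex II Sdhaf2 with 0.10 ± 0.17. In complex IV it was Cox6a2 with 1.64 ± 0.64, on few counts and tested only with its OFF libraries. The size of the difference rested on single libraries: the members' median was -0.017 without OFF replicate 1 and -0.27 without OFF replicate 2. Without ON replicate 1, members were called lower, in a fit whose share over all genes is not given here.

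Between OFF and WT no member was called by edgeR, and none by DESeq2. Over all genes edgeR called 4.7% higher and 2.14% lower. At an unadjusted p under 0.05, 13 members were higher in OFF and 1 was lower. Of all 15780 genes 1960 were higher and 1531 lower at that p. The median of the members was 0.15 (quartiles 0.07 and 0.28) against 0.01 for all genes, with 75 of 90 above 0. Both OFF libraries lay above both WT libraries in 41 members and below in 6, where 29.8% and 25.8% of all genes did so. Complex III had the highest median, 0.26, and each of its 8 members was above 0, with Uqcrh at 0.38 ± 0.12 (adjusted p = 0.0973). The lowest value belonged to Ndufaf4, an assembly factor of complex I, at 16.9 and 15 CPM in WT and 11.4 and 12.9 in OFF (-0.39 ± 0.17; adjusted p = 0.218). The highest values of complexes I, II and V were 0.52 ± 0.18 in Ndufb9, 0.40 ± 0.20 in Sdhaf1 and 0.31 ± 0.15 in Atp5g3, none called. The comparisons share libraries, so their values are given side by side only.

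As a single sum, the 97 members took 0.351% and 0.348% of gene counts in WT, 0.460% and 0.483% in ON, with 0.353% and 0.402% in OFF. The ON libraries were above all others and OFF replicate 1 was close to WT. The mean share of ON was 1.35 times that of WT and the mean of OFF was 0.800 times that of ON. Taken against protein-coding counts alone the ratios were 1.22 and 0.884. Complexes V and I made up most of the sum, with 0.128% ± 0.00206 and 0.105% ± 2.43e-05 in WT and 0.178% ± 0.0140 and 0.141% ± 0.000763 in ON (SD, n = 2). Complex II was the smallest part in ON, with 0.0355% ± 2.14e-05 against 0.0309% ± 0.000808 in WT.

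**Figure D3:**
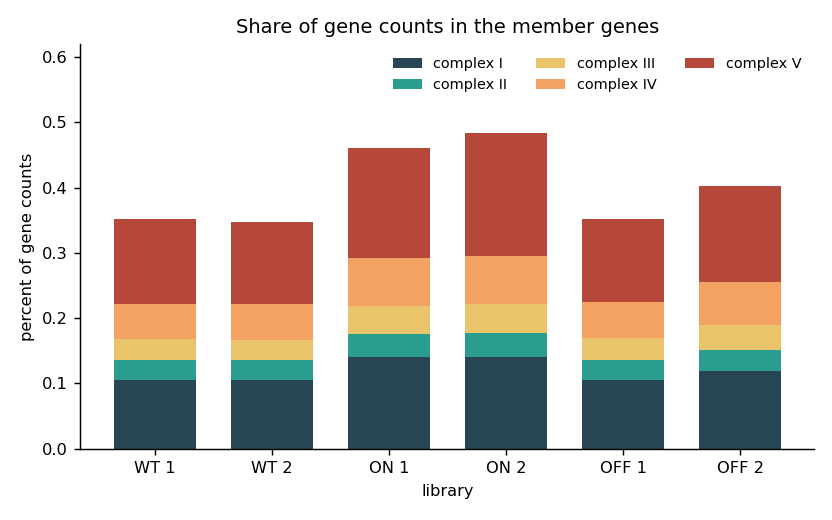
Percent of gene counts that fell in the member genes in each library, stacked by complex. The ON libraries reach 0.460% and 0.483%, the others 0.348% to 0.402%.

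Per length of transcript, the most abundant members in WT were Atp5h, Cox6c and Atp5mpl, which are small membrane and stalk subunits, followed by Atp5a1 of the F1 head. Atp5h stood at 232 ± 17.9 CPM per kilobase in WT, 395 ± 99.95 in ON and 235 ± 15.5 in OFF. Cox6c followed with 192 ± 1.47, 308 ± 53.6 and 221 ± 4.83, and Atp5mpl with 190 ± 5.28, 344 ± 136 and 191 ± 17.9 (SD, n = 2). The order of these 2 genes did not hold beyond their spread. Atp5a1 had 133 ± 4.18, 168 ± 9.0 and 151 ± 12.9. Cox7a2l, Cox4i1, Atp5b and Uqcrh had 112 to 120 CPM per kilobase in WT. Sdha, the most abundant gene of complex II, had 61.5 ± 3.69 and Sdhb 36.01 ± 0.48. Among the c ring genes Atp5g3 had 47.2 ± 1.35, Atp5g2 29.3 ± 6.18 and Atp5g1 2.77 ± 0.29, the last over a transcript of 4715 bases.

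Replicates of 1 group also differed in a common direction. In OFF, replicate 2 was above replicate 1 in 75 of 90 members (median log2 difference 0.18), where 50.8% of all genes were. In WT and ON replicate 2 was higher in 28 and 39 members, with medians of -0.07 and -0.07. The difference between the OFF libraries was larger than the median difference of -0.14 between OFF and ON.

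**Figure D4:**
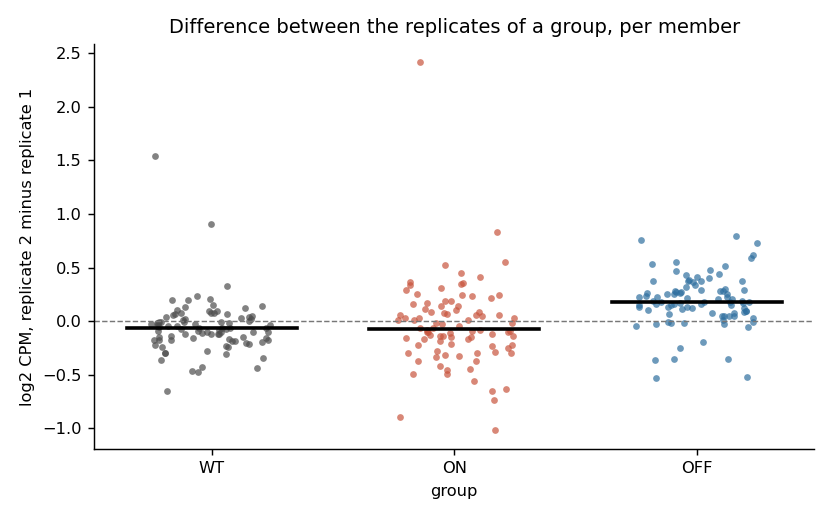
Log2 CPM of replicate 2 minus replicate 1 for each of the 90 tested members in each group, with each point a gene and the black bar the median. The OFF points centre on 0.18 and those of WT and ON on -0.07.

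Transcript length moved with the difference between ON and WT. The members' transcripts had a median of 891.5 bases, those of all protein-coding genes tested 3068. Of 749 protein-coding genes of up to 1000 bases 19.4% were called higher and their median log2 fold change was 0.24. The share was 13.96% from 1000 to 2000 bases, 11.9% from 2000 to 4000 and 8.37% above 4000, where the median was -0.11. In the members the counts were 14 of 50 (28.0%) up to 1000 bases, 6 of 28 (21.4%) from 1000 to 2000 and 0 of 12 above 2000. Across the 90 members, which share the same libraries, Pearson's r of the log2 fold change with log length was -0.35. For OFF against ON it was 0.11 and for OFF against WT -0.21. With the log of the mean level r was 0.08 for ON against WT, -0.40 for OFF against ON and -0.29 for OFF against WT. Length, the share of unaligned reads and the B cell and myeloid markers all differed along with ON against WT, and their part in the result was not tested.

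**Figure D5:**
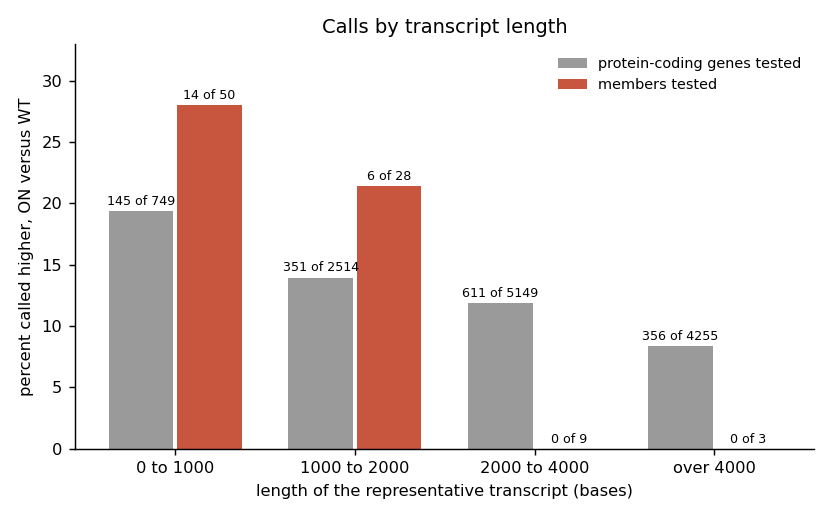
Percent of genes called higher in ON than in WT by length of the representative transcript, for all protein-coding genes tested and for the members, with the number called over each bar. The share falls with length in both, from 19.4% to 8.37% and from 28.0% to 0.

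The promoters of 2 called members with a motif of a known regulator of respiratory genes, and of 1 without, are printed from RefSeq (GRCm38.p6). The searched letters were GCGCATG (core of the NRF-1 site), CCGGAAG (ETS and GABP, also called NRF-2), AAGATGG (YY1) and TATAAA (the TATA box), on both strands. Capitals mark a match, and no matches overlap in the stretches printed. Each stretch holds the 160 bases nearest the gene that no annotated exon covers, 5′ to 3′ on the gene's strand: Cox5b at chr1:36691289-36691448 (plus strand), Uqcrh at chr4:116075072-116075231 (minus strand) and Atp5j at chr16:84835626-84835785 (minus strand).
Cox5b: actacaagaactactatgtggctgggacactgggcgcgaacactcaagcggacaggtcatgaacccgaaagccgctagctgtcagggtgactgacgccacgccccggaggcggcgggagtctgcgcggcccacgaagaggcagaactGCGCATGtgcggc
Uqcrh: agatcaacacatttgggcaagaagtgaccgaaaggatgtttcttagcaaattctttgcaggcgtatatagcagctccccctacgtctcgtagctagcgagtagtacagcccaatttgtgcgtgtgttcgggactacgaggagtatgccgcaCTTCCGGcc
Atp5j: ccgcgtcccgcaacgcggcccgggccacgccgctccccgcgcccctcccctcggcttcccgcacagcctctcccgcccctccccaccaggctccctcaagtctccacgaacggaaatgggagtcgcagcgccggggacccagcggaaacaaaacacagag

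In Cox5b the NRF-1 letters begin 51 bases before the RefSeq start, and in Uqcrh the reverse of the ETS letters begins 10 bases before it. Windows of 300 bases, from 250 before to 50 after the start, were given for 78 of 97 members (83 windows). Of these windows 18.1% held GCGCATG, where 3.91% of all 32851 windows did. CCGGAAG was in 25.3% against 8.86%, AAGATGG in 13.3% against 6.34%, and TATAAA in 10.8% against 13.6%. The members' windows had a median GC content of 58.3% against 52.7%. In the 17 windows of the members called in ON against WT, GCGCATG was in 23.5% and CCGGAAG in 29.4%, and in the 66 windows of the other members in 16.7% and 24.2%. Of the 15 called members with a window, only Cox5b and Uqcrh held NRF-1 or ETS letters in the exon-free stretch of at most 160 bases. In some of the others this stretch was shorter or absent. A match of letters is a description and not a binding site.

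Factors and genes that work with the chain were read from lists named in the methods. Of 16 tested regulators of mitochondrial biogenesis none was called in any comparison, among them Nrf1, Gabpa and Tfam, with log2 fold changes of ON against WT of -0.04, 0.15 and 0.18. Of 11 tested mitochondrially encoded subunits none was called, and their medians were -0.05 in ON against WT, 0.18 in OFF against ON and 0.09 in OFF against WT. Their summed level ran from 5075 to 7146 CPM, with overlapping groups. The 13 genes of coenzyme Q synthesis, 11 further assembly factors of complex I and 4 of complex V had no call in any comparison.

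The smallest p of the pathway lists belonged to a partner of complex V that the naming rule leaves out. Of the 4 tested genes in its list it alone was called in any comparison. In ON against WT Cycs (0.13 ± 0.13; adjusted p = 0.534) and Usmg5 (0.37 ± 0.41; 0.587) were not called, nor was Cyc1, given above. Atpif1 encodes the inhibitor protein that blocks the ATP synthase from running backwards. It was at 20.5 and 18.95 CPM in WT, 64.8 and 68.0 in ON, against 32.5 and 35.9 in OFF, so that the 3 groups did not overlap. It rose by 1.75 ± 0.13 in log2 from WT to ON (adjusted p = 9.04e-05). OFF was lower than ON (-0.96 ± 0.13; adjusted p = 0.00942) and higher than WT (0.79 ± 0.13; 0.0087). The call of ON against WT held under all 15 alternatives. That of OFF against ON was lost without OFF replicate 1 (adjusted p = 0.0579). That of OFF against WT was lost without WT replicate 1, WT replicate 2 or OFF replicate 2 (up to 0.0975).

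Of 24 tested assembly factors of complex IV 1 was called, a share in ON against WT below the 9.68% of all genes called higher. This gene was Pet100, which helps build the enzyme. It was at 18.004 and 21.3 CPM in WT, 38.1 and 43.0 in ON, with 23.7 and 23.9 in OFF. It rose from WT to ON (1.05 ± 0.15; adjusted p = 0.00236) under all 15 alternatives, and it was lower in OFF than in ON (-0.77 ± 0.14; 0.0442), a call lost under 9 of 16. Of 6 assembly factors of complex III Uqcc2 was called higher in ON than in WT (0.68 ± 0.20; adjusted p = 0.0455), lost under 8 of 15 alternatives.

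Of 6 tested carriers of adenine nucleotides and phosphate 2 were called higher in ON than in WT, where 9.68% of all genes were. Slc25a4, which exchanges ADP for ATP, was at 47.3 and 46.3 CPM in WT, 85.7 and 82.5 in ON, against 63.9 and 73.2 in OFF. Its log2 fold change against WT was 0.85 ± 0.12 in ON (adjusted p = 0.00282) and 0.55 ± 0.12 in OFF (0.0296). The first call was lost without WT replicate 2 (adjusted p = 0.0565) and the second under 4 of 16 alternatives. Slc25a5 had 0.40 ± 0.12 in ON against WT (adjusted p = 0.046), lost under 9 of 15. Of 14 genes of the tricarboxylic acid cycle 2 were called higher in ON than in WT, a share near the 11.5% of protein-coding genes. They were Idh3a (0.65 ± 0.15; adjusted p = 0.0229) and Suclg2 (0.67 ± 0.14; 0.0148). Both calls were lost without either WT library, up to an adjusted p of 0.18 and 0.177, and that of Idh3a also without ON replicate 1 (0.0652) and with a replicate block (0.0535). Of 18 genes of pyruvate entry and fatty acid oxidation, ON against WT gave 1 higher and 1 lower call, shares near or below the 9.68% and 5.16% of all genes. Both are kinases that switch off pyruvate dehydrogenase. Pdk3 rose (0.79 ± 0.15; adjusted p = 0.00854). Pdk1 fell, from 265 and 251 CPM in WT to 177 and 171 in ON (-0.57 ± 0.12; adjusted p = 0.0133). Both calls were lost without either WT library (up to 0.109 and 0.142). Pdk1 was also called lower in OFF than in WT, at 197 and 173 CPM (-0.48 ± 0.12; 0.0408), a call lost under 7 of 16 alternatives.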

How the data were processed

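Total RNA of sorted spleen CD4 T cells was sequenced on an Illumina NovaSeq and aligned to GRCm38, per the labels. The values are raw counts by gene as deposited, whole numbers without scaling. R 3.6.2 and edgeR appear in the submitters' processing notes. For aligner, counter, strand setting and annotation nothing is given in the sources used here, so reads of antisense and near-identical genes may be mixed. A summary row held 13.3% to 15.0% of reads as not uniquely aligned, outside the genes. Counts over identical stretches may thus be too low. The 5 summary rows were left out. Between 33.7% and 46.9% of reads were assigned to genes.

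Identifiers were matched to GENCODE release M21 (47310 of 47729). Genes were kept by filterByExpr (minimum count 10, total 15), scaled by TMM and tested with edgeR 4.0.16 in R 4.3.3 (quasi-likelihood, robust, all 6 libraries in 1 fit, 3 residual degrees of freedom, Benjamini-Hochberg). The biological coefficient of variation was 15.7%. CPM values are TMM-scaled. Alternatives were RLE and upper quartile scaling, a mean CPM of at least 1, no filter, DESeq2 1.42.0, limma-voom 3.58.1, only the libraries of the 2 groups, only protein-coding genes, a replicate block, and each library left out in turn. A crossed replicate block was chosen after seeing the data. The steps were tested on simulated data. Identical stretches were found with blastn 2.17.0, and transcript length is that of the principal transcript.

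Named with values were members called in a comparison (the 12 of smallest p, others as counts or ranges), core subunits, the extremes of each complex, isoforms, members under 1 CPM, and called genes of the other lists (at most 6 a list). Other members were named after their values were seen. A called member is not reported here by name. The other lists held cytochrome c and subunits outside the naming rule, assembly factors, mitochondrially encoded subunits, the tricarboxylic acid cycle, pyruvate entry and fatty acid oxidation, biogenesis regulators, carriers, coenzyme Q synthesis and cell type markers. Members and lists were chosen with earlier results of these data known. All p-values are two-sided and adjusted over all genes tested.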

Additional observations from a re-analysis of the deposited data

How the results depend on the processing

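Under the 16 alternatives no median and no called gene's difference changed direction. Members called higher in ON than in WT numbered 13 with upper quartile scaling and 10 with a replicate block, against 20, and from 0 to 21 when 1 library was left out. Members called lower in OFF than in ON numbered 5 with DESeq2 and 10 with the crossed replicate block, against 0, and 0 to 7 when 1 library was left out. The median of OFF against ON then ran from -0.27 to -0.017. Members called higher in OFF than in WT numbered 1 with only the libraries of the 2 groups and 5 with the crossed replicate block, against 0, and 0 to 3 when 1 library was left out. The summed share of counts was 0.523% in WT, 0.638% in ON and 0.564% in OFF against protein-coding counts, and 0.455% in ON against TMM-scaled library sizes. Where a group keeps 1 library, its spread is taken from the other groups. The counts in this paragraph stand without the share over all genes under the same setting. They show how the calls moved with the processing and do not set the members apart from other genes.

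The numbers did not pair the samples: deviations correlated at 0.08 between WT and ON, -0.21 between WT and OFF and -0.20 between ON and OFF. Under the replicate block no member was called in the other comparisons. Without a WT library fewer genes were called over the whole table too, in each of the 3 comparisons.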
